A study of Mus musculus with 2 samples.

Results

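The genes described here are those that encode the proteins of the cytosolic ribosome. They were taken by symbol, as every gene named Rpl or Rps with a number (and an a, x, l or y suffix where present) together with Rplp0, Rplp1, Rplp2 and Rpsa, without pseudogenes and without the Rps6k kinases. This gave 83 members of 32285 genes listed, 51 of the large subunit and 32 of the small subunit. The libraries came from dorsal telencephalon of EomesDot control mouse embryos of genotype WT at embryonic day 14.5, which the methods of the study describe as C57BL/6J. Each of the 2 libraries, replicates 2 and 4 of the group WT, holds the dissociated cells of all types, without a sort, tagged at the 3′ end of polyadenylated RNA in droplets. There was 1 genotype and 1 stage, so the comparisons lie between cell classes within the same 2 libraries, and the study counts embryos over all of its libraries of this stage, with no statement in the sources used here of how they fall on these 2.

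Ribosomal proteins are built in near equal amounts into a large and a small subunit around the ribosomal RNA, and in growing cells their mRNAs are among the most frequent in the cytoplasm. Most of these mRNAs begin with a terminal oligopyrimidine (TOP) tract, a C followed by a run of C and T (U in the RNA), through which mTOR signalling tunes their translation without a change in mRNA level. In the developing cortex, radial glial cells (RGCs) and intermediate progenitor cells (IPCs) divide and grow, while their daughter neurons migrate and extend processes. A count of mRNA tags measures the messages and not the ribosomes.

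To show the tract in the members on which the comparisons turn, 30 bases around the annotated transcription start (10 before and 20 from the start) are printed 5′ to 3′ on the strand of the gene, from RefSeq on build GRCm38.p6. Capitals mark a C followed by at least 4 further C or T that begins within 5 bases of the start. Rps24 and Rps9 are among the members with most UMIs, Rpl12, Rps2, Rpl22l1 and Rps27l are among those with the largest differences between progenitors and neurons, and Rpl13a and Rps18 are among those lowest in interneurons. They were picked to show the tract, and other members with many UMIs or large differences (Rpl13, Rplp0, Rpl23, Rps7 and Rpsa) do not hold it in their annotated window.
Rps24, chr14:24490668-24490697, plus strand: gctggggtCCTTCCTTgcgcgttgatatga
Rps9, chr7:3704031-3704060, plus strand: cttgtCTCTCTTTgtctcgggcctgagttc
Rpl12, chr2:32961702-32961731, plus strand: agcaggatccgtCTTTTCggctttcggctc
Rps2, chr17:24720053-24720082, plus strand: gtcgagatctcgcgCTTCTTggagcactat
Rpl22l1, chr3:28805498-28805527, plus strand: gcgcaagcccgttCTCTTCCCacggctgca
Rps27l, chr9:66946076-66946105, plus strand: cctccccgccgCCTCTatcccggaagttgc
Rpl13a, chr7:45128726-45128755, minus strand: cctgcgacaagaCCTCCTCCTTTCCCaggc
Rps18, chr17:33955646-33955675, minus strand: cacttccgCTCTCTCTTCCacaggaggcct
Of the 83 members, 63 had a start in the table, and 29 of them (46.0%) held such a tract on the sense strand in at least 1 annotated window. The same letters were found for 21.2% of all 27025 genes with a window. A window without the tract says only that these letters do not begin near the annotated start, and the table gives some starts that lie off the tract (Rps24 has a further window without it).

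Replicate 2 held 1712 barcodes with 40267872 UMIs and replicate 4 held 2589 barcodes with 49422007 UMIs, and 3 barcodes occurred in both. After filtering, 1197 and 1956 cells remained, with a median of 30810 and 22949 UMIs per cell. The members took 9.65% of the UMIs of the retained cells in replicate 2 and 8.55% in replicate 4. Cells were clustered without the members, and 19 of 23 clusters were named from marker genes. All 10 radial glial markers were raised in both RGC-like clusters. Markers of intermediate progenitors (6 to 8 of 8, Eomes among the leading genes of each), of excitatory neurons (9 to 11 of 12) and of interneurons from the medial ganglionic eminence (MGE, 9 of 10) were raised in theirs. The CGE interneuron-like cluster (caudal ganglionic eminence) rested on 4 of 7 markers. Hemoglobin genes, a sign of free RNA from red blood cells, made up 0.0045 to 0.061% of the UMIs of the 8 classes compared.

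Set against one another, progenitor, excitatory neuron-like and MGE interneuron-like cells differed in their share of UMIs from ribosomal protein genes by more than the libraries did. This did not hold for every pair of classes. In RGC-like cells the 83 genes took 12.5% of all UMIs in replicate 2 and 11.6% in replicate 4 (12.1% ± 0.589, SD, n = 2 libraries). In IPC-like cells they took 12.3% and 10.5% (11.4% ± 1.32), a range that overlapped that of RGC-like cells. Excitatory neuron-like cells had 7.76% and 6.67% (7.22% ± 0.768), so both libraries of either progenitor class lay above both libraries of the neurons. MGE interneuron-like cells had the smallest share of the 8 classes, 4.47% and 3.36% (3.92% ± 0.783). CGE interneuron-like cells had 6.05% and 4.18% (5.12% ± 1.33). Within each library this was above the MGE interneuron-like and below the excitatory neuron-like share, although the ranges of the interneuron classes overlapped across libraries.

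Outside the cortical lineage, meningeal-like cells had the highest share of the 8 classes, 14.9% and 12.5% (13.7% ± 1.73). Within each library they lay above RGC-like cells, while the lower of their values was level with the higher RGC-like library. Cajal-Retzius-like cells (7.92% and 6.21%) and hem or choroid plexus-like cells (7.01% and 7.002%) overlapped the range of the excitatory neurons. Counting error was small beside these differences: the exact binomial 95% interval ran from 3.33 to 3.40% for MGE interneuron-like cells of replicate 4, and it covers counting error only. An exact permutation test of 2 libraries against 2 cannot give a two-sided p below 0.333, so the shares are given without a test. Large subunit genes held 53.8 to 55.9% of the members' UMIs in every class and library, while the total ran from 14.9 to 3.36%.

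**Figure D1:**
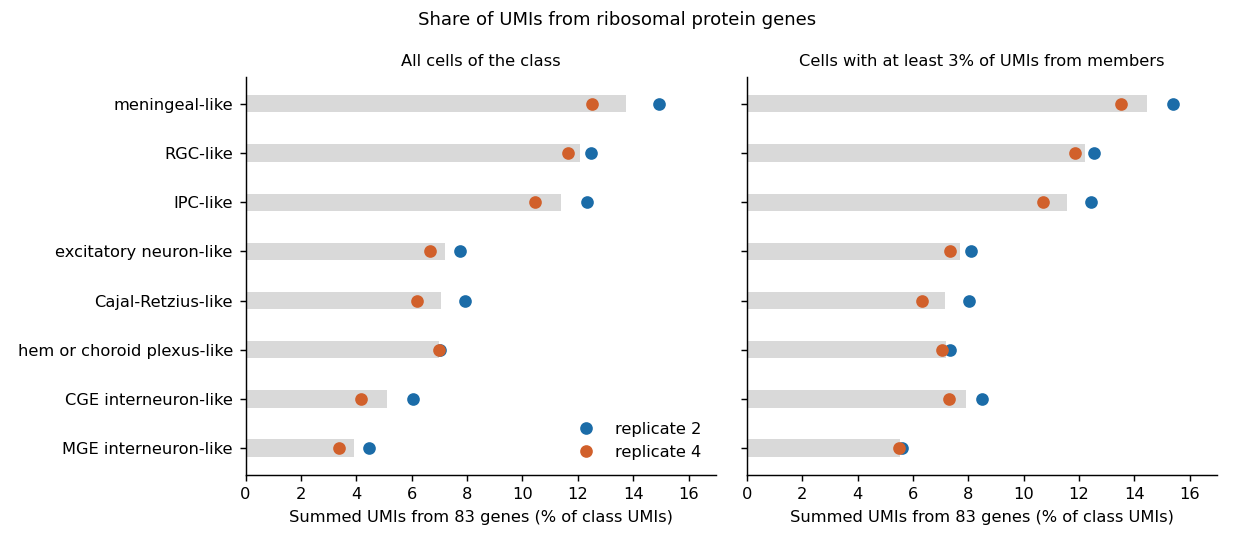
Summed UMIs of the 83 ribosomal protein genes as a percentage of all UMIs of the class (x axis) for the 8 classes compared (10 or more cells per library); points are the 2 libraries and bars their mean. The left panel holds all cells, in which the means run from 13.7% in meningeal-like to 3.92% in MGE interneuron-like cells, and the right panel holds cells with at least 3% of UMIs from these genes, in which the selection on the share itself puts the CGE interneuron-like mean at 7.91%.

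Cells of a class did not all lie around its summed share. In both progenitor classes and in the excitatory neurons most lay near the summed share and fewer lay near 1 to 2%. In the interneuron-like classes of replicate 4 the median cell itself had 1.44% (MGE) and 1.80% (CGE), below the summed shares of 3.36% and 4.18%. A share of 3% was used to separate them after the distributions were seen. Of 3153 retained cells, 558 lay below it. Below 3% were 28 of 561 RGC-like cells, 29 of 509 IPC-like cells, 236 of 1341 excitatory neuron-like cells, 75 of 136 MGE interneuron-like cells and 92 of 136 CGE interneuron-like cells. The RGC-like count leaves out a cluster without a name (cluster 11), in which 8 of 10 radial glial markers were raised. Of its 71 cells, 46 lay below 3%. Within 0.5 percentage points of 3% lay 5 of the MGE interneuron-like, 12 of the CGE interneuron-like, 40 of the excitatory neuron-like, 15 of the RGC-like and 11 of the IPC-like cells.

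The low set was larger in replicate 4 in each of these classes. In MGE interneuron-like cells it held 40.7% of the cells of replicate 2 (22 of 54, exact binomial 95% interval 27.6 to 55.0%) and 64.6% of those of replicate 4 (53 of 82, 53.3 to 74.9%). In excitatory neuron-like cells it held 10.9% (8.39 to 13.9%) and 21.8% (19.1 to 24.8%). Low cells had fewer UMIs: in excitatory neuron-like cells a median of 14533 and 11378 against 35900.5 and 26813 for the rest. Their mitochondrial share was higher (medians of 3.95% and 4.78% against 2.58% and 2.85%), as was that of the nuclear RNA Malat1 (2.29% and 2.40% against 1.45% and 1.32%). These values are of the same cells and are given as a description. Their part in the class differences was not tested.

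Leaving out the low cells selects on the share itself, so a class with many of them must rise most, and the values without them are a description and no test of the classes. The summed share was then 12.2% ± 0.478 in RGC-like, 11.6% ± 1.22 in IPC-like, 7.71% ± 0.541 in excitatory neuron-like and 5.55% ± 0.0672 in MGE interneuron-like cells (SD, n = 2). In CGE interneuron-like cells, of which 92 of 136 were left out, it was 7.91% ± 0.843. The ratio of MGE interneuron-like to excitatory neuron-like cells was 0.576 and 0.504 in the 2 libraries over all cells, and 0.691 and 0.750 without the low cells. The ratio of RGC-like to excitatory neuron-like cells was 1.61 and 1.75 over all cells, and 1.55 and 1.62 without them.

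**Figure D2:**
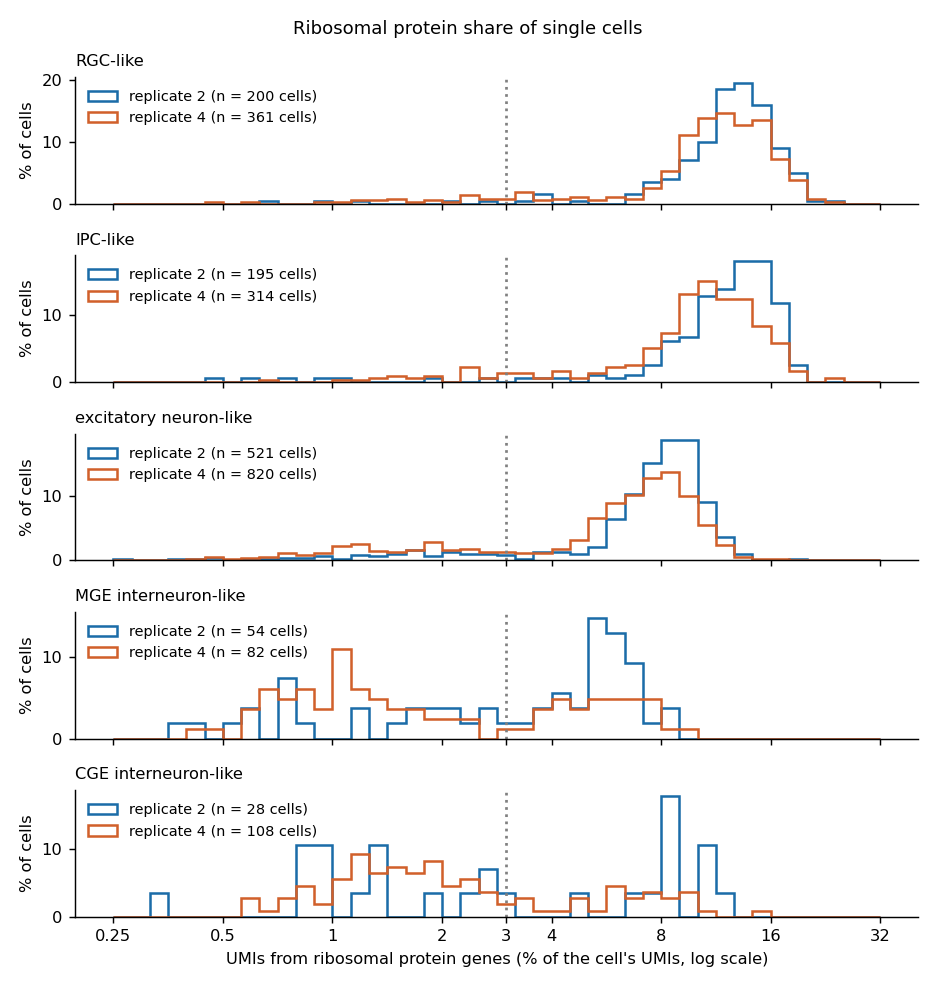
Percentage of cells (y axis) by the share of a cell's UMIs that came from the 83 genes (x axis, log scale), for 5 classes, with 1 line per library and a dotted line at 3%. RGC-like and IPC-like cells centre at 10 to 13%, excitatory neuron-like cells near 7 to 8%, and 53 of 82 MGE interneuron-like and 77 of 108 CGE interneuron-like cells of replicate 4 lie below 3%.

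What the members have in common beyond their function is size. All but 1 of the 83 genes (82) span less than 10 kb, and their coding sequences are short. The share of UMIs from other genes under 10 kb was therefore followed beside them. In excitatory neuron-like cells the low set had medians of 13.9% and 13.8% of UMIs from short genes that are no members, against 20.03% and 18.9% in the rest, and medians of 41.3% and 43.7% from genes over 100 kb, against 33.9% and 35.8%. Over single cells, Spearman's rho between the members' share and the share of other short genes was 0.711 and 0.727 in excitatory neuron-like cells (521 and 820 cells) and 0.877 and 0.886 in MGE interneuron-like cells (54 and 82 cells). It was lower in IPC-like cells, 0.253 and 0.477 (195 and 314 cells). Both quantities are shares of the same total, and cells of 1 library are not replicates.

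In cells with at least 15% of UMIs from short genes that are no members, a limit added after seeing the data, the share was 12.4% in RGC-like, 7.73% in excitatory neuron-like and 5.54% in MGE interneuron-like cells. That setting kept 29 and 36 of the 54 and 82 MGE interneuron-like cells of the libraries.

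**Figure D3:**
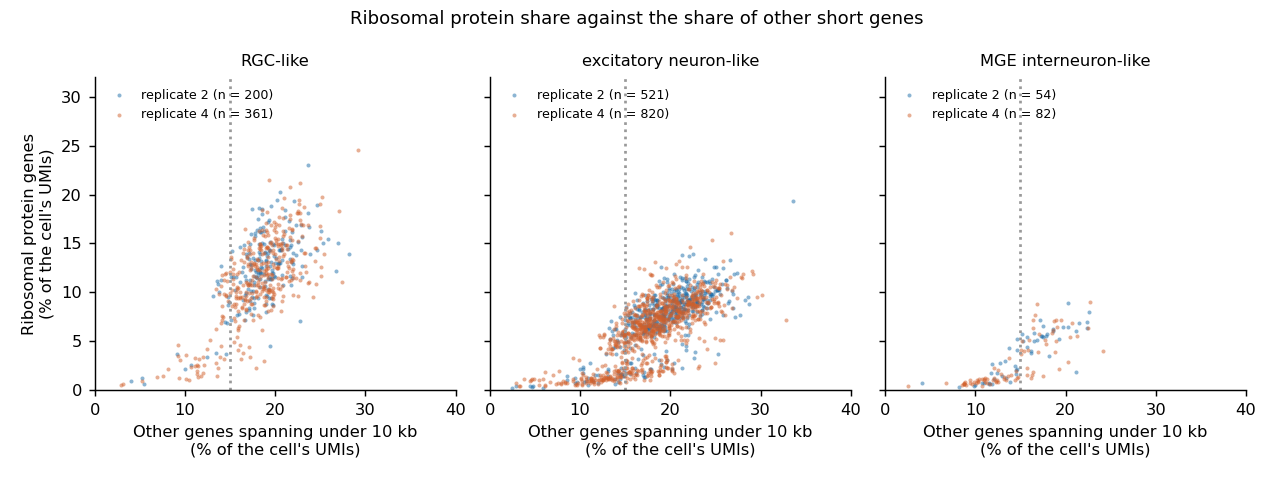
Each point is a cell, with the share of its UMIs from other genes spanning under 10 kb (x axis, %) against the share from the 83 ribosomal protein genes (y axis, %), coloured by library, and a dotted line at 15%. Low cells lie at the left end, and right of the line the summed shares are 12.4% in RGC-like, 7.73% in excitatory neuron-like and 5.54% in MGE interneuron-like cells.

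The share also differed within the progenitor classes. The RGC-like cluster led by division genes such as Top2a had 11.6% and 10.7%, below the 13.6% and 12.8% of the other RGC-like cluster. The dividing IPC-like cluster had 9.67% and 9.003%, the IPC-like cluster with Neurod1 and Slc17a6 among its leading genes had 11.6% and 9.96%, and the largest IPC-like cluster had 13.4% and 11.5%. Among the excitatory neuron-like clusters the range was 6.38 to 8.32% in replicate 2 and 4.17 to 7.93% in replicate 4. The lowest of these was a cluster of 28 and 123 cells in which the median cell of replicate 4 had 2.33%. These clusters were drawn from the same cells and are described without a test.

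Single members were then compared on UMI counts summed per library and class, with edgeR's quasi-likelihood test over all 12931 genes with enough counts and Benjamini-Hochberg adjustment. Of the 83 members, 80 entered. Rpl10l (a testis copy of Rpl10) had 0 UMIs in the retained cells, and a count of 0 allows up to 3. Rpl3l (a muscle copy of Rpl3) had 3 UMIs and Rpl39l had 27. Log2 fold changes are on edgeR's TMM-scaled log2 scale, while CPM values (UMI counts scaled to the total of the summed class) are not TMM-scaled. The 2 scales differ because TMM gave the excitatory neuron-like sums factors of 0.871 and 0.861 and the RGC-like sums 1.05 and 1.04. All comparisons with excitatory neurons share the same 2 sums.

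Between IPC-like and excitatory neuron-like cells, the members that passed the test were all higher in IPC-like cells. Of the 80 tested, 22 (27.5%) were called higher in IPC-like cells and 0 lower, where 15.4% of all genes were called higher and 20.9% lower. The members' median log2 fold change was 0.46, and 79 of 80 were above 0, with the median of all genes at -0.05. In 73 of the 80 both IPC-like libraries lay above both excitatory neuron-like libraries in CPM, as did 47.0% of all genes. With the library as a block in the fit, 56 members were called higher and 0 lower, where 16.9% of all genes were called higher and 22.2% lower (39.2% in either direction, against 36.3% without the block). The 22 called without the block were all among these 56.

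Rps27l, a copy of Rps27 that responds to p53, gave the largest difference. It had 255 and 189 CPM in the IPC-like libraries and 109 and 79.5 CPM in the excitatory neuron-like libraries, which edgeR put at 1.04 ± 0.184 in log2 (SE, adjusted p = 0.000681). Rpl12, which sits at the base of the ribosomal stalk, had 1064 and 977 CPM against 537 and 515 CPM (0.76 ± 0.157, edgeR adjusted p = 0.00205). Neither of these genes overlapped between the classes. Rps24 followed with 0.69 ± 0.214, Rplp1, a stalk protein, with 0.69 ± 0.229 and Rpl22l1, a copy of Rpl22, with 0.69 ± 0.231 (edgeR adjusted p = 0.0228, 0.0319 and 0.0339).

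At the other end, Rpl10 (0.05 ± 0.226) and Rps7 (0.13 ± 0.221) did not pass the test. Rpl10 had 1130 and 903 CPM in IPC-like and 958 and 757 CPM in excitatory neuron-like cells, and these ranges overlapped. Rps7 had 2028 and 1909 CPM against 1641 and 1497 CPM.

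From RGC-like cells to excitatory neuron-like cells 30 of the 80 members (37.5%) were called higher in RGC-like cells and 0 lower, against 24.5% and 29.9% of all genes (54.4% in either direction). Their median was 0.46, with 76 above 0, and in 73 both RGC-like libraries lay above both of the neurons (49.6% of all genes). With the library as a block, 56 were called higher and 0 lower, beside 25.6% and 31.1% of all genes (56.7% in either direction). Scaling moved the zero of this comparison. With total UMIs in place of TMM, the median of all genes went from -0.09 to 0.17 and that of the members from 0.46 to 0.73, so the members stood 0.55 and 0.56 above the median gene under both. The share of higher calls among all calls went from 45.0% to 60.2%, and all 80 members were above 0. In IPC-like against excitatory neuron-like cells the same change moved the median of all genes from -0.05 to 0.14 and the share of higher calls from 42.4% to 59.0%, with the members 0.51 and 0.52 above the median gene.

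Rps27l, Rpl22l1 and Rpl12 were again at the top. Rps27l had 291 and 232 CPM in RGC-like cells (log2 fold change 1.20 ± 0.184, edgeR adjusted p = 0.000113), and Rpl22l1 had 524 and 453 CPM against 217 and 162 CPM (1.10 ± 0.233, edgeR adjusted p = 0.00142). Rpl12 had 1269 and 1284 CPM (1.01 ± 0.157, edgeR adjusted p = 0.000128). Each of these was more than 2-fold lower in neurons in CPM, in both libraries.

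Rps2, at the entry of the mRNA channel, had 2405 and 2731 CPM against 1076 and 1109 CPM (0.96 ± 0.155, edgeR adjusted p = 0.000169). Rpsa, also known as the laminin receptor precursor, had 2695 and 2980 CPM against 1210 and 1205 CPM (0.96 ± 0.167, edgeR adjusted p = 0.000303). The members Rpl27, Rpl10, Rpl38 and Rps7, had estimates between -0.09 and -0.01, none of which passed the test and all of which were above 0 when total UMIs were used. The 56 called with the block did not include them.

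No member was called between RGC-like and IPC-like cells. With edgeR 0 of the 80 members were called, against 33.7% of all genes (18.1% higher and 15.6% lower). An unadjusted edgeR p under 0.05 was found in 2 members, and DESeq2 called 5, for which no share of all genes is given here. The median was 0.00, and single members ran from -0.33 (Rpl27) to 0.47 (Rpl7l1), with 40 above 0 and 40 below (54 above 0 with total UMIs). In 23 members both RGC-like libraries lay above both IPC-like libraries and in 0 below, while 42.6% and 31.7% of all genes did so. With the library as a block 2 members were called higher in RGC-like cells, beside 19.6% of all genes called higher and 17.2% lower (36.8% in either direction). These were Rpl7l1 (0.47 ± 0.163, edgeR adjusted p = 0.0387) and Rps2 (0.39 ± 0.126, edgeR adjusted p = 0.0289), which without the block had adjusted p = 0.0537 and 0.0671. The median SE of a member without the block was 0.21.

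**Figure D4:**
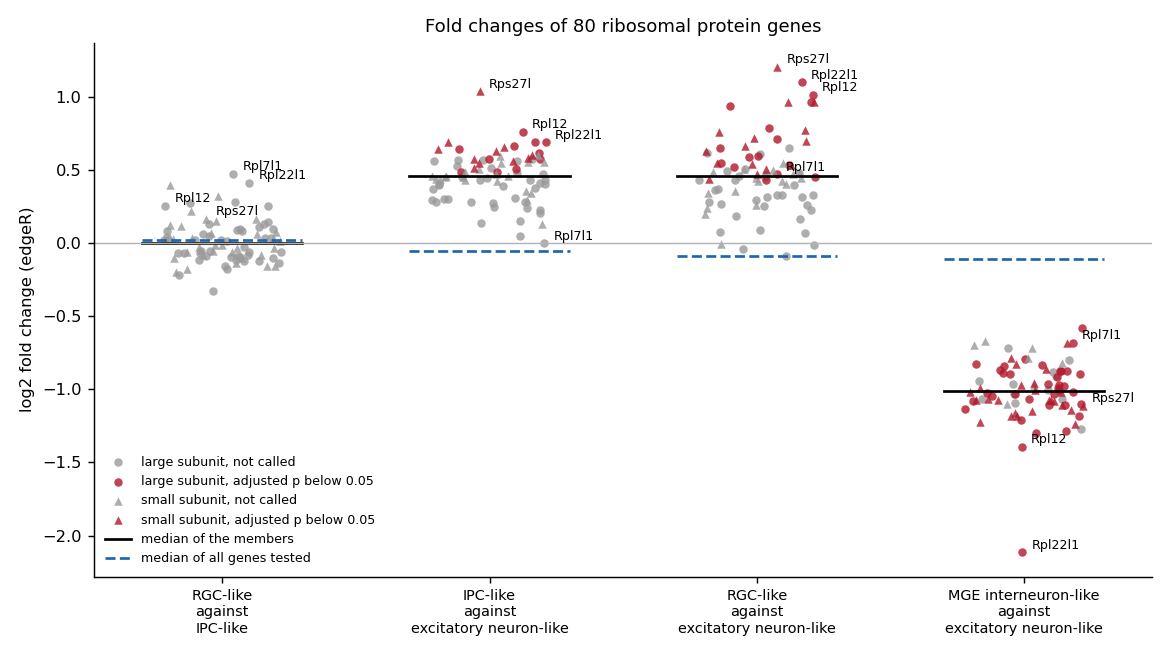
Log2 fold changes from edgeR (y axis) of the 80 members tested, in 4 comparisons of cell classes; circles are large and triangles small subunit genes, red those with an adjusted p below 0.05, black lines the median of the members and dashed lines the median of all genes. The members' medians are 0.00, 0.46, 0.46 and -1.01. Rps27l has the highest estimate in both comparisons of progenitors with excitatory neurons (1.04 and 1.20), and Rpl22l1 the lowest in MGE interneurons (-2.11).

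MGE interneuron-like cells had fewer UMIs of ribosomal protein genes than excitatory neuron-like cells. Of the 80 members 61 were called lower and 0 higher, against 12.7% and 6.65% of all genes (19.4% in either direction), and all 80 were below 0 with a median of -1.01 (all genes: -0.11). With total UMIs the share of higher calls among all genes went from 34.3% to 45.8% and the members' median was -0.91 with all 80 below 0. In 77 members both interneuron libraries lay below both excitatory libraries, as did 34.8% of all genes. With the library as a block all 80 were called lower, beside 14.1% of all genes called lower and 7.25% higher (21.4% in either direction). Without it, 36 of 48 large and 25 of 32 small subunit genes were called.

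The low cells described above made up 75 of 136 MGE interneuron-like and 236 of 1341 excitatory neuron-like cells. In replicates 2 and 4 the median MGE interneuron-like cell had 23450.5 and 11510 UMIs, against 34720 and 24880.5 in excitatory neuron-like cells. Its mitochondrial share was 2.63% and 3.59% against 2.61% and 2.96%, and its Malat1 share 2.07% and 2.30% against 1.49% and 1.43%. The part of these in the difference was not tested. Among cells with at least 15% of UMIs from other short genes, 46 members were called lower, 0 higher, and the median was -0.64. Without the excitatory neuron-like cluster of lowest share, 71 were called lower. Both counts come from fits of their own, and the share of all genes called in them is not given here. Which of the low cells' features goes with the difference was not tested.

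Rpl22l1 had the lowest estimate of the members, well below the next. It had 44.2 and 49.98 CPM in MGE interneuron-like cells against 217 and 162 CPM in excitatory neuron-like cells (log2 fold change -2.11 ± 0.261, edgeR adjusted p = 0.000115). Its named relative Rpl22, which is also known to act in T-cell development, had 280 and 191 CPM against 456 and 372 CPM (-0.92 ± 0.252, edgeR adjusted p = 0.0217). In each library Rpl22l1 differed more than Rpl22, by -2.39 against -0.81 in replicate 2 and by -1.79 against -1.06 in replicate 4.

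The next were Rpl12 with 209 and 222 CPM (-1.39 ± 0.162, edgeR adjusted p = 7.03e-05), Rpl13a (-1.30 ± 0.196, edgeR adjusted p = 0.000482), Rpl36a (-1.29 ± 0.343, edgeR adjusted p = 0.0188) and Rps18 (-1.24 ± 0.174, edgeR adjusted p = 0.00029). Rpl13a had 529 and 421 CPM against 1132 and 1040 CPM, and Rps18 had 417 and 364 CPM against 884 and 827 CPM. The smallest differences were those of Rpl21 (-0.58, called) and Rps29 (-0.67, not called). Rpl39 had an estimate as large as Rpl36a, -1.27 ± 0.419, but an edgeR adjusted p of 0.0501 without the block.

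Among the gene copies, Rpl7l1, a copy of Rpl7, had 83.9 and 88.5 CPM in RGC-like, 57.9 and 60.5 in IPC-like, 53.8 and 49.5 in excitatory neuron-like and 29.7 and 39.6 in MGE interneuron-like cells. It was called higher in RGC-like than in excitatory neuron-like cells (0.47 ± 0.172, edgeR adjusted p = 0.0342), while between IPC-like and excitatory neuron-like cells its estimate was 0.00 ± 0.174. Rpl7 itself had estimates of 0.19 ± 0.180 and 0.28 ± 0.180 in these comparisons, neither called.

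Rps27l was higher in both progenitor classes. Rps27 had 834 and 561 CPM in RGC-like, 951 and 556 in IPC-like and 592 and 378 in excitatory neuron-like cells, so its libraries overlapped between the classes and its estimates (0.26 ± 0.422 and 0.44 ± 0.423) were not called. With the library as a block, which takes up the difference between the libraries, the estimates were 0.26 ± 0.161 and 0.42 ± 0.161 (edgeR adjusted p = 0.181 and 0.0561), also not called. Whether Rps27l and Rps27 differ in their change was not tested. Rpl39l, a testis-expressed copy, had at most 0.862 CPM in the 4 classes, whereas Rpl39 had 1325 and 909 CPM in RGC-like cells. Rpl3 was called higher in RGC-like than in excitatory neuron-like cells (0.71 ± 0.166, edgeR adjusted p = 0.00283).

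Among the members with most UMIs were Rpl13, Rps27a (made as a fusion with ubiquitin), Rps24, Rpsa, Rplp0, Rps9, Rpl23, Rplp1 and Rps7. Tags are counted at the 3′ end and CPM is not divided by length, so levels are not compared between genes, and short members differ more between the libraries (below 300 coding bases a median of 0.62 in log2). Rpl13 had 2771 and 2928 CPM in RGC-like, 2582 and 2466 in IPC-like, 1652 and 1619 in excitatory neuron-like and 1069 and 847 in MGE interneuron-like cells. The 10 members with most UMIs together held 19.95% of the members' UMIs, so no few genes carried the total. Of those named, Rplp0 (0.78 ± 0.166, edgeR adjusted p = 0.00139), Rpsa, Rplp1, Rpl13, Rps24 and Rps27a were called higher in RGC-like than in excitatory neuron-like cells, and Rps9, Rpl23 and Rps7 were not. With the library as a block Rps9 and Rpl23 were called too (edgeR adjusted p = 0.0306 and 0.0312).

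Other genes of translation were read from the same fits. The 4 further genes of this ribosome that were followed beside the symbol rule, among them Fau, Rack1 and Rpl36al, had median log2 fold changes of 0.26 and 0.33 in RGC-like and IPC-like against excitatory neuron-like cells, with 0 called. With the block Rpl36al was called higher in RGC-like than in excitatory neuron-like cells (edgeR adjusted p = 0.0329) and than in IPC-like cells (0.0416). In MGE interneuron-like cells 3 of the 4 were lower, Rpl36al by -1.17 ± 0.202, Rack1, a scaffold on the small subunit, by -1.15 ± 0.176 and Fau by -0.76 ± 0.204.

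In the lists that follow, counts are to be read against the share of all genes called, which was 18.1% higher and 15.6% lower for RGC-like against IPC-like cells, 15.4% and 20.9% for IPC-like against excitatory neuron-like, 24.5% and 29.9% for RGC-like against excitatory neuron-like and 6.65% and 12.7% for MGE interneurons against excitatory neurons. Of the 8 elongation factors, 3 were higher and 2 lower in RGC-like than in excitatory neuron-like cells. Eef1d, a subunit of the exchange factor, had 282 ± 7.70 CPM in RGC-like, 151 ± 5.29 in IPC-like and 60.4 ± 2.84 in excitatory neuron-like cells (SD, n = 2), a log2 fold change of 1.95 ± 0.135 from excitatory neuron-like to RGC-like cells, and Eef1b2 gave 0.91 ± 0.175. Eef1a2, the elongation factor isoform of mature neurons and muscle, had 20.7 ± 3.89 CPM in excitatory neuron-like and 0.414 ± 0.390 in RGC-like cells, and Eef1e1 was also lower in RGC-like cells (-0.58 ± 0.156). In MGE interneuron-like cells 5 of 8 were lower and 0 higher, among them Eef2 (-1.15 ± 0.183) and Eef1a1 (-0.88 ± 0.184).

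Of 30 initiation factors, 10 were higher and 2 lower in RGC-like than in excitatory neuron-like cells (all genes: 24.5% and 29.9%), with Pabpc1, the poly(A) binding protein, at 0.85 ± 0.227, Eif4g1 at 0.63 ± 0.127 and Eif4a2, a helicase subunit, at -1.29 ± 0.171. In IPC-like against excitatory neuron-like cells 2 were higher and 1 lower, a smaller share than of all genes, and in RGC-like against IPC-like cells 1 was higher and 2 lower, Eif3m (-0.54 ± 0.128) and Eif4g2 (-0.61 ± 0.190). In MGE interneuron-like cells 13 were lower and 0 higher, led by Eif3i (-1.28 ± 0.132), Eif3f, Eif3m and Eif3e. With the block Pabpc1 was also called higher in IPC-like and lower in MGE interneuron-like cells (edgeR adjusted p = 0.0302 and 0.0320).

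Ribosome biogenesis genes, which make and assemble the subunits, were called between the progenitor classes. Of 46, 18 were called higher in RGC-like than in IPC-like cells and 0 lower (all genes: 18.1% higher and 15.6% lower), with a median of 0.38. Dkc1, the pseudouridine synthase of box H/ACA particles, had 108 ± 0.630 CPM against 39.1 ± 3.12 (SD, n = 2, log2 fold change 1.39 ± 0.128), and its partner Gar1 had 79.3 ± 5.69 against 37.0 ± 3.12 (1.03 ± 0.137). Tcof1, a factor of ribosomal RNA synthesis, gave 0.96 ± 0.176. In RGC-like against excitatory neuron-like cells 26 were higher and 2 lower, led by Dkc1 (1.81 ± 0.127), Ltv1 (1.38 ± 0.185), Utp20 (1.36 ± 0.182) and the RNA polymerase I subunit Polr1a (1.30 ± 0.168), and in IPC-like against excitatory neuron-like cells 5 were higher and 0 lower, of which the higher share lies below the 15.4% of all genes. Against excitatory neurons, MGE interneurons had 11 lower and 0 higher, led by Polr1d (-1.23 ± 0.166) and Nop10. With the block Mybbp1a was also called between RGC-like and IPC-like cells, and Nop10 between RGC-like and excitatory neuron-like cells (edgeR adjusted p = 0.0482 and 0.0499).

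Of 6 further genes with TOP mRNAs, 2 were higher in RGC-like than in excitatory neuron-like cells, Npm1, a nucleolar chaperone, with 1458 against 574 CPM (means, n = 2, 1.08 ± 0.158) and Naca (0.43 ± 0.163). The same 2 were higher in IPC-like cells, and all 6 were lower in MGE interneuron-like cells, led by Tpt1 (-1.14 ± 0.202).

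Of 20 tested regulators of ribosome synthesis (21 listed), 2 were higher and 3 lower in RGC-like than in IPC-like cells, shares at or below those of all genes (18.1% and 15.6%). Eif4ebp1, which mTOR controls, had 18.1 ± 0.997 against 1.399 ± 0.855 CPM (3.66 ± 0.394), and Mycn had 50.5 ± 2.37 against 23.7 ± 1.46 CPM (1.02 ± 0.185). Mycl had 15.1 ± 0.157 against 41.1 ± 5.14 CPM (-1.51 ± 0.334). In MGE interneuron-like cells 3 were lower, Mycn (-1.80 ± 0.254), Akt1s1 and Trp53, and 0 higher.

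The 78 mitochondrial ribosomal protein genes, which serve another ribosome, gave 8 higher and 2 lower in RGC-like than in IPC-like cells, 7 and 5 in IPC-like against excitatory neuron-like cells, 17 and 4 in RGC-like against excitatory neuron-like cells and, of MGE interneurons against excitatory neurons, 0 and 19. Their medians were 0.04, 0.08, 0.15 and -0.45, in each case nearer to 0 than those of the cytosolic genes except between RGC-like and IPC-like cells. In the 3 comparisons of progenitor classes the shares called, higher and lower, were each below those of all genes. Mrpl13 was the highest of them in both comparisons of progenitors with excitatory neurons (0.98 ± 0.119 and 1.15 ± 0.119).

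Among the genes whose level over the 16 class sums was most like the summed members were Fau (Pearson's r = 0.985), Tpt1 (0.985), Eef1a1 (0.983), Naca (0.972), Nsa2 (0.968), Eef1b2 (0.968), Psma5 (0.961), Pcbp1 (0.955) and Rack1 (0.9497), out of 12851 genes that are no members. The sums are 8 classes of the same 2 libraries, so r is a description. Tpt1 ran from 3885 ± 15.3 CPM in meningeal-like to 1238 ± 214 in MGE interneuron-like cells.

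The members also differed between the libraries, by length. The median over 8 classes of log2 CPM in replicate 2 less that in replicate 4 was above 0 in 76 of the 80 members, with a median of 0.24, and in 40.5% of 4112 other genes of at least 50 mean CPM. In all 8 classes at once 32 of the 80 members were higher in replicate 2, as were 3.04% of the other genes. The 9 members with under 300 coding bases had a median of 0.62, the 28 from 300 to 450 bases 0.33, the 19 from 450 to 600 bases 0.19 and the 24 longer ones 0.11. Other genes of the same lengths had smaller medians of 0.16, 0.08, 0.02 and -0.04. Over members, Spearman's rho with coding length was -0.811 (n = 80), and over other genes -0.336 (n = 4034), as a description over genes that share the same 2 libraries.

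Rpl35 had the largest library difference, 0.81, followed by Rpl37 (0.73) and Rpl38 (0.69). The lowest values, counting the sign, were those of Rps2 (-0.08), Rps3 (-0.01) and Rplp0 (0.00). Rpl39, with 237 coding bases, was 0.62 higher in replicate 2 and had an SE of 0.41 to 0.42 in the comparisons above, which became 0.15 with the library as a block. What set the libraries apart was not tested.

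**Figure D5:**
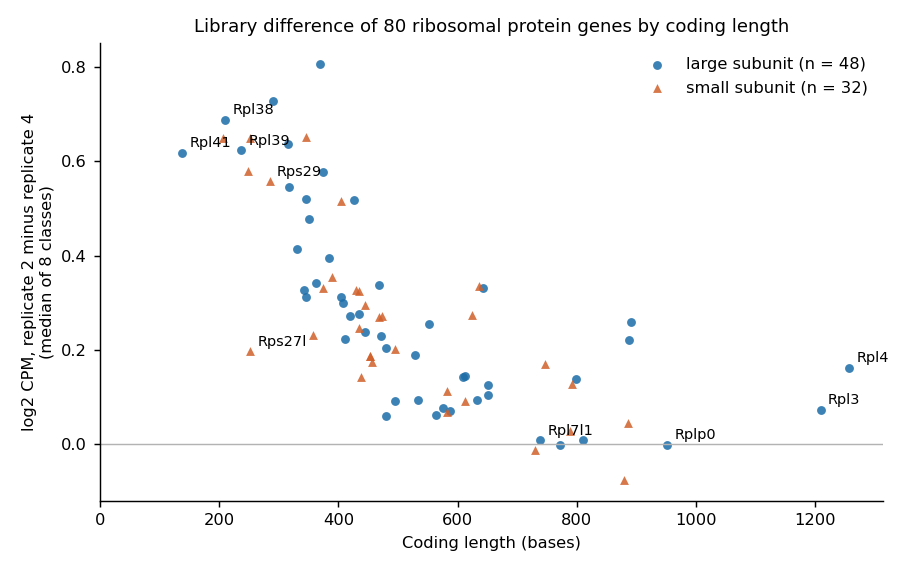
Log2 CPM in replicate 2 minus replicate 4, as the median over 8 classes (y axis), against coding length in bases (x axis) for 80 members, circles for large and triangles for small subunit genes. Members under 300 bases have a median of 0.62, those of 600 bases and more 0.11.

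Reads of these genes can also match near-identical copies. For 26 members, at least 1 other listed gene with more than 3 UMIs has a transcript with 95% identity or more over at least 200 bases. Examples are Gm2000 beside Rpl35 (99.8% identity, 4835 UMIs against 33197), Gm10076 beside Rpl41 (99.5%, 5559 against 118398) and Rps27rt beside Rps27 (98.9%, 2112 against 48286). Values of these members are uncertain for this reason, by an amount that the UMIs counted for the copies do not give.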

How the data were processed

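The members and gene lists were chosen with earlier results of these data known. The authors deposited 10x Genomics 3′ v3.1 UMI counts, raw and not normalized, as a matrix of genes by barcodes per library; per the labels the submitters' processing notes name Cell Ranger 7.0.0 and mm10. Barcodes under 1000 genes or above 10% mitochondrial UMIs were dropped, Scrublet doublets (14 and 15) removed, and cells clustered in scanpy 1.11.5 (2000 variable genes without members, 30 components, 20 neighbours, Leiden resolution 1). A cluster was named where at least 3 markers were raised (log2 of at least 1 and in 25% of cells). It lost its name where its 10 leading genes held more markers of another list, hemoglobin genes included. It also did so where they held no own marker and its median UMI count was below 1/3 of the library's. These further rules left clusters 6, 10, 11 and 20 without a name. Counts were summed per library and class with at least 10 cells in each library (8 classes, 16 sums) and tested in edgeR 4.0.16 (TMM, filterByExpr, quasi-likelihood, class as the only term, called at adjusted p below 0.05), checked on simulated data. The library is the replicate (n = 2). Where nothing says that libraries came from separate animals, p-values measure only the spread between these 2 libraries. Sums of the same library come from 1 cell suspension and so pair the classes; the correlation of their deviations had a median of 0.101 over 28 pairs of classes (0.0221 to 0.323), and the fit with the library as a block is given beside the main one. A library holds 40267872 or 49422007 UMIs, and with 2 libraries an SD can fall below the counting error.

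Named members were the 10 with the highest mean CPM, up to 5 called in each direction per comparison with the largest fold and the same sign in both libraries, the gene copies and their relatives, and members with 0 UMIs; of the other lists, up to 4 called genes with the largest fold in a comparison. Members at the other end of a comparison (Rpl10, Rpl27, Rpl38, Rpl39, Rpl21, Rps29) and those with the largest library difference were chosen after their values were seen. Coding lengths and transcripts are from GENCODE M39, used for lengths and identity only, with minimap2 2.31-r1302. Alternatives comprised filters, resolutions, depth, thinning to 5000 UMIs, 3 other scalings, DESeq2 1.42.0, the library block and splitting each cell's UMIs between class and test. Some genes that these rules name are not reported here.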

Additional observations from a re-analysis of the deposited data

Results flagged for a closer look

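Signals from these genes were also present in barcodes and genes outside the comparisons. Barcodes removed for few genes that were not led by hemoglobin had 11.5% (replicate 2, 385 barcodes) and 9.56% (replicate 4, 356 barcodes) of their summed UMIs from the members, with medians over barcodes of 5.38% and 6.12%. Barcodes led by hemoglobin had 1.31% and 1.18% (57 and 67 barcodes, medians of 4.66% and 1.24%), and those removed for over 10% mitochondrial UMIs had 5.49% and 3.34% (59 and 195 barcodes, medians of 2.07% and 2.36%).

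Of the 4 clusters without a name, cluster 6, led by Coro1a, Ctsd and hemoglobin genes, had the highest share of all clusters, 17.9% and 14.5%, with a median of 4266 and 4794 UMIs per cell and 0.01% of UMIs from Malat1 (cell medians). Cluster 10, with radial glial markers and hemoglobin genes in the lead, had 15.4% and 13.4%. Cluster 11, also with radial glial markers, had 2.46% and 2.54% at a median of 5972 and 4883 UMIs. Cluster 20, with endothelial markers and hemoglobin genes, had 14.8% and 13.1%, with cell medians of 6.99% and 8.72% and 3 of 9 and 6 of 18 cells below 3%.

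Listed copies that the symbol rule leaves out had 2112 UMIs (Rps27rt), 1839 (Rpl9-ps6), 1553 (Rpl10-ps3) and 845 (Rpl36a-ps1) in the retained cells.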

How the results depend on the processing

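The share of UMIs kept the order of progenitors above excitatory neurons above MGE interneurons in 15 of 15 alternatives, and RGC-like above IPC-like in 14 (at Leiden resolution 0.5 it was 11.8% against 12.5%). It moved from its main value by more than the SD of the libraries for RGC-like cells of 10000 to 40000 UMIs (13.1%). The same held for MGE interneuron-like cells rich in other short genes (5.54%). Smaller moves could still leave the range of the libraries. Examples are IPC-like cells at resolution 0.5 (12.5%) and the mean of the single MGE interneuron-like cells' shares (3.32%). Leaving out a library gave 11.6 to 12.5% (RGC-like), 10.5 to 12.3% (IPC-like), 6.67 to 7.76% (excitatory) and 3.36 to 4.47% (MGE).

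No alternative gave a call against the direction of the main comparison. Counts of members called are given here without the share of all genes called in each setting. A rise in a count alone therefore does not set the members apart from other genes. For IPC-like against excitatory neuron-like cells, 22 calls became 45 at resolution 0.5, 44 in cells of 10000 to 40000 UMIs, 45 with total UMIs, 35 with DESeq2, 50 with only the classes compared in the fit and 56 with the replicate block. For RGC-like against excitatory neuron-like cells, 30 became 52, 52, 48, 54 and 56 under the last 5 of these. RGC-like against IPC-like cells went from 0 to 1 with at least 500 genes, at most 5% mitochondrial UMIs, doublets kept, resolution 0.5, members among the variable genes, short-gene-rich cells, the hemoglobin-led cluster added or the lowest excitatory cluster left out, to 2 at resolution 2, after thinning, with DESeq2 size factors, total UMIs or the replicate block, to 3 in the fit of the classes compared and to 5 with scaling within libraries or DESeq2. The MGE count stayed between 42 and 80. The cause was not tested, except that the fit of only the classes compared drops the other sums.

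With classes drawn from one part of each cell's UMIs and the test run on the other, the counts were 0, 24, 34 and 60. These too are members called, without the share of all genes. Rpl7l1 between IPC-like and excitatory neuron-like cells, near 0 and not called, changed sign in 11 alternatives: 0.087 (doublets kept), 0.0041 (resolution 2), 0.037 (members variable), 0.14 (10000 to 40000 UMIs), 0.058 (thinned), 0.064 (DESeq2 size factors), 0.20 (total UMIs), 0.012 (non-member scaling), 0.064 (DESeq2), 0.050 (classes compared only) and 0.22 (split UMIs). Other named members changed no sign. Some calls depend on the setting. There were 22 alternatives, of which those that leave out a library give no test and can end no call. Among the others, Rpl22l1 lost its call for IPC-like against excitatory neuron-like cells in 4, Rplp1 in 2 and Rps24 in 1. Rpl36a lost its call in MGE interneurons in 3, and Rpl7l1 lost its calls in 8 (MGE) and 2 (RGC-like against excitatory neuron-like cells). Rpl7l1, not called between RGC-like and IPC-like cells, was called there in 16. Leaving out a library leaves 1 sum per class and hence no test; Rpl7l1 then had -0.088 and 0.084 between IPC-like and excitatory neuron-like cells, and the other named members kept their sign. No member called without the replicate block lost its call with it. What depth limits is the rarest members, 3 of which had under 100 UMIs.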
